A study of Mus musculus with 6 samples.

Results

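Type I interferon response genes were followed in RNA-seq libraries of long-term hematopoietic stem cells (LT-HSCs), the bone marrow cells from which all blood lineages are renewed. The 54 listed genes are interferon-induced genes together with the receptor and transcription factors of the pathway, taken by gene symbol from a deposited count table of 11779 genes. The table gave counts for 52 of them, and all 52 passed the filter on low counts, among 10869 genes tested. Ifnar1 and Ddx58 were not analysed here. WT mice (n = 3 libraries, numbered 1, 3 and 4) had the genotype c-Myc fl/+, with 1 floxed allele of Myc and no Cre recombinase. HET mice (n = 3, also numbered 1, 3 and 4) had the genotype c-Myc fl/+ Mx1Cre, which adds a Cre transgene driven by the promoter of Mx1, itself an interferon-induced gene and a member of the list. All mice were female and 8 weeks old. Deletion was induced with 3 intraperitoneal injections of poly(I:C), a synthetic double-stranded RNA, at 6 mg/kg. Whether WT mice received it is left unsaid in the series text, as is how long after the last injection the cells were sorted. The Cre transgene, the deletion of Myc and any difference in poly(I:C) exposure go together in this design and cannot be told apart. Sorting took lineage-negative, CD48-negative cells with Sca-1, c-Kit and CD150 on their surface. HET libraries are titled as knockouts, but their genotype label is heterozygous and was used. The labels do not say that the libraries came from separate mice, so p-values measure the spread between these libraries.

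Total counts ranged from 4249490 in WT 4 to 9886223 in HET 1. Levels are CPM, counts relative to each library's total after TMM scaling. Myc, the targeted gene, measured 447, 427 and 542 CPM in the WT libraries 1, 3 and 4 and, in the HET libraries of the same numbers, 294, 387 and 372 CPM, all HET values lying under all WT values (edgeR log2 fold change -0.43 ± 0.12 SE, adjusted p = 0.312). All 12 stem cell markers in the list used here were in the table, with a summed level of 3366 to 3905 CPM. Kit, which encodes c-Kit, measured 1091 to 1258 CPM. Cd48, whose protein was excluded by the sort, measured 1.67 to 3.25 CPM in WT and 3.67 to 8.96 CPM in HET, with no overlap (edgeR log2 fold change 1.41 ± 0.61 SE, adjusted p = 0.849). It belongs to a list of markers of the CD48 side of the sort (5 of 6 in the table). That list summed to 278 to 359 CPM in WT and 316 to 346 CPM in HET, which overlapped. Its other genes had log2 fold changes of 0.16 for Irf8, 0.07 for Cd34, -0.05 for Flt3 and -1.68 for Cd52. Summed markers of neutrophils (10 of 10 in the table) measured 147 to 657 CPM in WT and 210 to 479 CPM in HET. For monocytes and macrophages (8 of 10) the sums were 169 to 213 CPM in WT and 185 to 206 CPM in HET, and for dendritic cells (3 of 10) 130 to 208 CPM in WT and 167 to 179 CPM in HET. B lineage markers (5 of 10) summed to 83.9 to 109 CPM in WT and 83.6 to 148 CPM in HET, and T and NK markers (2 of 10) to 9.06 to 20.0 CPM in WT and 18.5 to 29.6 CPM in HET. The groups overlapped in each of the 5 lists from neutrophils to T and NK cells. They did not overlap for the sum of erythroid markers (6 of 10), at 772 to 879 CPM in WT and 663 to 747 CPM in HET. Most of this sum came from the carbonic anhydrase gene Car2, and the 6 genes did not share a direction. Log2 fold changes were -0.24 for Car2, -1.85 for Car1, -0.29 for Epor and -0.08 for Tfrc, but 0.70 for the globin gene Hbb-bt and 0.46 for Klf1. The part of any such cells in the results below was not tested. In bulk libraries, fewer cells that express a gene and less RNA per cell cannot be told apart.

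Type I interferons bind a receptor made of IFNAR1 and IFNAR2. Receptor-bound kinases then activate STAT2, which acts with IRF9 in a complex that binds interferon-stimulated response elements and switches on antiviral genes. Poly(I:C) is read by double-stranded RNA sensors and leads to interferon release, and blood stem cells are known to leave quiescence for a time when interferon reaches them. Interferon response genes are also known to be expressed in stem cells at rest.

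A sequence feature that the choice of members did not use was found in under 50% of them, and in a smaller share of all genes. The core of the response element is GAAA followed by any 2 bases and a second GAAA. It was searched on both strands in the 300 bases around each RefSeq start of a gene (250 before and 50 after it, GRCm38.p6). Some genes have more than 1 start (32851 windows in all), and a gene counted as holding the core if any of its windows did. A promoter was found for 41 of the 54 listed genes, and 19 of these (46.3%) held it, against 3.99% of 27025 genes with a promoter in the same table. In a longer form, with CT after the second GAAA, the share was 22.0% of the members and 0.303% of all genes. Matches within a promoter can overlap each other, and a match is a description of the letters and not of a bound site. The following upstream stretches are of the members described with values in each library that have a match before the start. Capitals mark the matches, which read TTTC, any 2 bases and TTTC where they lie on the other strand.
Stat2 (chr10:128270248-128270347, plus strand): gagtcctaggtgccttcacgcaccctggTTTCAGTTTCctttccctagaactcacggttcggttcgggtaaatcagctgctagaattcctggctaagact
Ddx60 (chr8:61927987-61928086, plus strand): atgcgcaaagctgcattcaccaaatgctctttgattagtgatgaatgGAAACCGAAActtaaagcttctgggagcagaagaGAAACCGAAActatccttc
Isg15 (chr4:156200827-156200926, minus strand): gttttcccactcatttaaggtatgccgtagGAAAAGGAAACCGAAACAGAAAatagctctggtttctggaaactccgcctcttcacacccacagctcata
Ifitm2 (chr7:140955962-140956061, minus strand): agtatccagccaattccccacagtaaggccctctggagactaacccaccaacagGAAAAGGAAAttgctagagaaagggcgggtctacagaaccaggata
The Isg15 stretch holds 3 overlapping matches and the Ddx60 stretch 2 separate ones, while Stat2 and Ifitm2 have 1 each. Among the 39 tested members with a promoter, the 18 with a match had a median log2 fold change of 0.21 (13 positive) and the 21 without one a median of 0.08 (16 positive). The 13 tested members with no promoter in the table, Mx1 among them, had a median of 0.24 (9 positive). Whether a match goes with the fold change was not tested.

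None of the 52 members passed the test between HET and WT, while most had slightly higher fitted levels in HET. In edgeR's quasi-likelihood fit, 0 of 52 members passed an adjusted p of 0.05 over all genes tested, where 0.258% of all genes did (28 genes, with 10 without HET 4, 11 without WT 1 and 68 without HET 1). DESeq2 and limma-voom also called 0 members. An unadjusted p under 0.05 was reached by 6 members (11.5%), against 5.22% of all genes, with 3 without WT 3 or HET 4, 13 without WT 1 and 10 without HET 1. Of these, 5 (Mx1, Zbp1, Parp9, Herc6 and Stat2) had higher means in HET, against 2.02% of all genes, and 1 (Irf1) had a lower one, against 3.19%. Positive log2 fold changes, meaning a higher fitted level in HET, were found for 39 of the 52 (75.0%), against 50.7% of all genes. The median of the members was 0.14, with quartiles of 0.00 and 0.35, and the median of all genes was 0.00. In 6 members (11.5%) every HET library lay above every WT library, against 4.69% of all genes, and in 0 members every HET library lay below, against 5.64%. In either direction the share was 11.5% of the members and 10.3% of all genes. Leaving out 1 library gave 7 to 21 such members, the most without WT 1, and 17.6% to 24.1% of all genes. The 6 were Mx1, Zbp1, Parp9, Usp18, Ifnar2 and Lgals3bp. The 95% interval of the fold change lay within 2-fold in both directions for 42 members and within 1.5-fold for 24. For those members a larger difference between the group means lies outside the interval, while Mx1, Oas2, Isg15, Ifit1 and Ifit3 were among the 10 with wider ones.

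**Figure D1:**
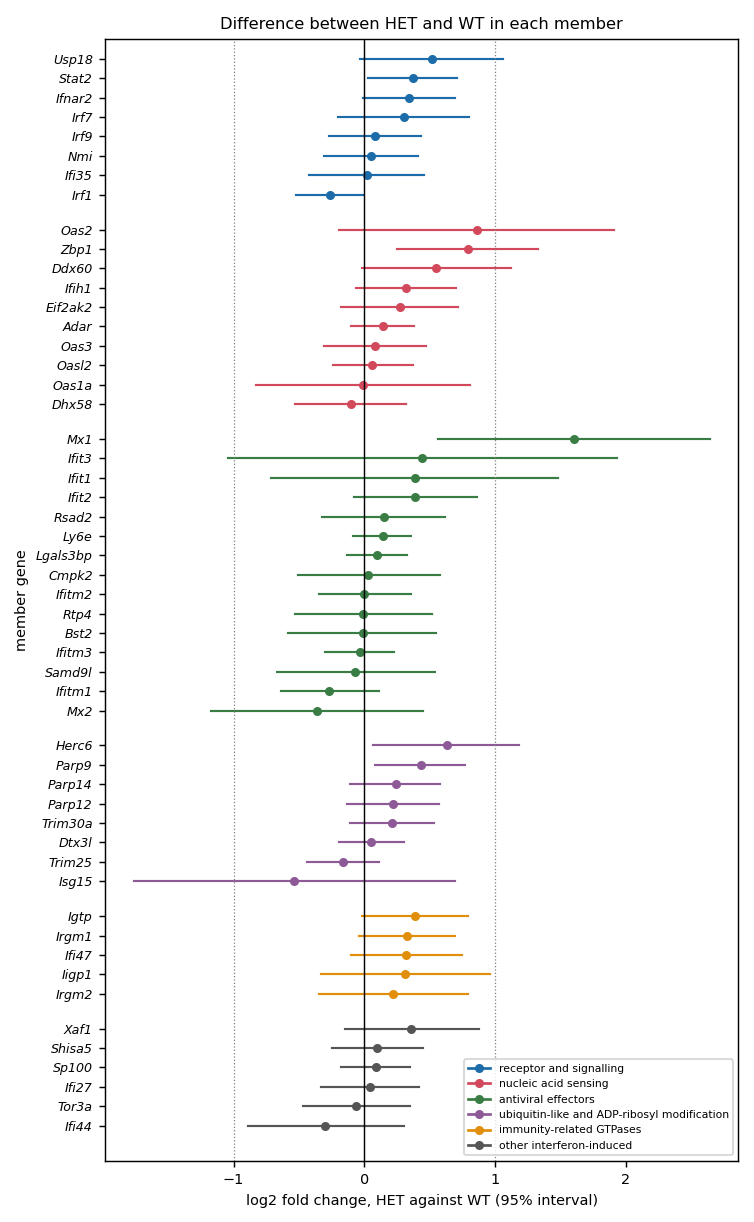
Log2 fold change of HET against WT (x axis) for each of the 52 members (y axis), grouped and coloured by role, with 95% intervals from edgeR as bars and dotted lines at 2-fold. 39 points lie right of 0, and Mx1 lies farthest right at 1.60.

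Among receptor and signalling genes, 7 of 8 had positive fold changes and the median was 0.19. Ifnar2, which encodes a chain of the type I interferon receptor, measured 59.7, 50.3 and 54.4 CPM in WT and 67.8, 65.0 and 75.4 CPM in HET (here and below in the order 1, 3, 4). Its groups did not overlap (log2 fold change 0.34 ± 0.17 SE, edgeR adjusted p = 0.951). Stat2 measured 81.2, 67.0 and 61.1 CPM in WT and 78.4, 92.9 and 99.6 CPM in HET. HET 1 lay below WT 1, so the groups overlapped (0.37 ± 0.16 SE, adjusted p = 0.902).

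Irf9, the DNA-binding part of the same complex as STAT2, measured 154, 129 and 113 CPM in WT and 125, 113 and 181 CPM in HET. HET 4 was the highest of the 6 libraries and HET 3 the lowest (0.08 ± 0.17 SE, and -0.14 without HET 4). Irf7, which amplifies interferon production, measured 44.4, 39.9 and 22.7 CPM in WT and 42.2, 37.3 and 53.2 CPM in HET, with WT 4 low and HET 4 high (0.30 ± 0.24 SE, edgeR adjusted p = 0.995). Without WT 4 its fold change was 0.07, and without WT 1 it was 0.49. Irf1, a transcription factor shared with the interferon-gamma response, was the one gene of this role with a lower mean in HET. It measured 227, 198 and 230 CPM in WT and 168, 174 and 203 CPM in HET, where HET 4 reached above WT 3 (-0.26 ± 0.12 SE, edgeR adjusted p = 0.950). Usp18, the protease that removes ISG15 and restrains the receptor, was added after its values were seen. It measured 16.6, 24.1 and 26.5 CPM in WT and 27.4, 27.7 and 41.1 CPM in HET, and the groups were separated by less than 1 CPM between WT 4 and HET 1 (0.52 ± 0.26 SE, edgeR adjusted p = 0.952). Nmi and Ifi35, whose proteins bind each other, had fold changes of 0.05 and 0.02.

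Of the genes for nucleic acid sensing, 8 of 10 had positive fold changes, with a median of 0.21. Zbp1 (ENSMUSG00000027514; GRCm38 chromosome 2, 173206612 to 173218923, minus strand) encodes a sensor of left-handed nucleic acid that can trigger necroptosis. It measured 17.7, 17.7 and 20.0 CPM in WT and 23.5, 37.7 and 34.9 CPM in HET, so that all HET libraries lay above all WT libraries. Its log2 fold change was 0.79 ± 0.26 SE (95% interval 0.25 to 1.33, edgeR adjusted p = 0.517). Ddx60, a helicase linked to the sensing of viral RNA, measured 38.6, 16.5 and 31.0 CPM in WT and 35.7, 37.7 and 53.0 CPM in HET. The overlap came from WT 1, while WT 3 was the lowest library (0.55 ± 0.27 SE, edgeR adjusted p = 0.952).

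The OAS enzymes make the second messenger that activates RNase L, and Oas2 varied widely among libraries of the same group. Oas2 measured 41.0, 10.4 and 21.9 CPM in WT, a 3.93-fold range, and 48.8, 29.7 and 54.8 CPM in HET. Its fold change of 0.86 ± 0.46 SE was the second highest of the members and did not pass (edgeR adjusted p = 0.980). Without WT 1 its fold change was 1.47 and without WT 3 it was 0.49. The other OAS members had fold changes near 0, at 0.08 for Oas3, 0.06 for Oasl2 and -0.01 for Oas1a, with standard errors up to 0.40 for Oas1a. Ifih1, which encodes the poly(I:C) sensor MDA5, had 0.32 ± 0.18 SE and Dhx58, a helicase of the same family, -0.10 ± 0.20 SE. Eif2ak2, the double-stranded RNA-activated kinase PKR, had 0.27, and Adar, which edits double-stranded RNA, had 0.14.

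Antiviral effectors were the largest role group, with 9 of 15 positive fold changes and a median of 0.03. Mx1 (ENSMUSG00000000386; GRCm38 chromosome 16, 97447035 to 97462907, minus strand) encodes a dynamin-like antiviral GTPase, and its promoter drives the Cre transgene carried by HET mice alone. It measured 4.15, 2.38 and 4.05 CPM in WT and 9.22, 6.11 and 16.8 CPM in HET. Behind them stand 23, 13 and 17 counts for WT, and 93, 28 and 86 for HET. All HET libraries lay above all WT libraries, and HET 4 was the highest. The log2 fold change of 1.60 ± 0.50 SE was the highest and the p the smallest of the 52 members, without passing over all genes (95% interval 0.56 to 2.64, edgeR adjusted p = 0.450). For Mx1 it was 1.14 without HET 4, its lowest value when 1 library was left out, and 1.87 without HET 3, its highest. Whether reads from the transgene were counted here was not tested.

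Mx2, the neighbouring paralog of Mx1, did not share this pattern of values. It measured 16.2, 9.33 and 10.7 CPM in WT and 9.62, 5.89 and 12.7 CPM in HET, with overlapping groups (-0.36 ± 0.39 SE, edgeR adjusted p = 0.995). Its counts were also low, at 90, 51 and 45 in WT and 97, 27 and 65 in HET. The difference between the fold changes of Mx1 and Mx2 was not tested. The Ifit genes, whose products bind viral RNA, had positive values with wide errors, at 0.39 ± 0.52 SE for Ifit1 (-0.21 without HET 4), 0.39 ± 0.23 SE for Ifit2 and 0.44 ± 0.71 SE for Ifit3. Ifit3 had 8 to 28 counts per library, the fewest in total of the members. Rsad2 and Cmpk2, a neighbouring gene pair with roles in antiviral nucleotide metabolism, had 0.15 and 0.03.

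The entry-restricting Ifitm genes, Ly6e and Lgals3bp were the most abundant members per kb of exon, with fold changes from -0.27 to 0.14. Ifitm3 was the highest, at 364 CPM per kb averaged over the 6 libraries. It measured 247, 246 and 257 CPM in WT and 242, 204 and 287 CPM in HET, so that the WT libraries lay inside the HET range (-0.03 ± 0.13 SE). Ifitm2 measured 68.7, 66.4 and 85.6 CPM in WT and 86.7, 66.1 and 67.4 CPM in HET (0.00 ± 0.17 SE). Ifitm1 measured 70.9, 77.9 and 104 CPM in WT and 56.0, 77.6 and 77.0 CPM in HET. WT 4 was high and HET 1 low for Ifitm1, and the groups overlapped (-0.27 ± 0.18 SE, edgeR adjusted p = 0.995). Ly6e, a lipid-anchored surface protein that restricts viral entry, measured 309, 340 and 340 CPM in WT and 375, 330 and 382 CPM in HET (0.14 ± 0.11 SE). Lgals3bp, a secreted glycoprotein, measured 271, 243 and 265 CPM in WT and 286, 276 and 272 CPM in HET. The Lgals3bp groups were separated by a narrow gap between WT 1 and HET 4, and the fold change was 0.10 ± 0.11 SE (edgeR adjusted p = 0.995). The remaining effectors Bst2 (tetherin), Samd9l and Rtp4 had values from -0.07 for Samd9l to -0.01 for Bst2 and Rtp4.

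**Figure D2:**
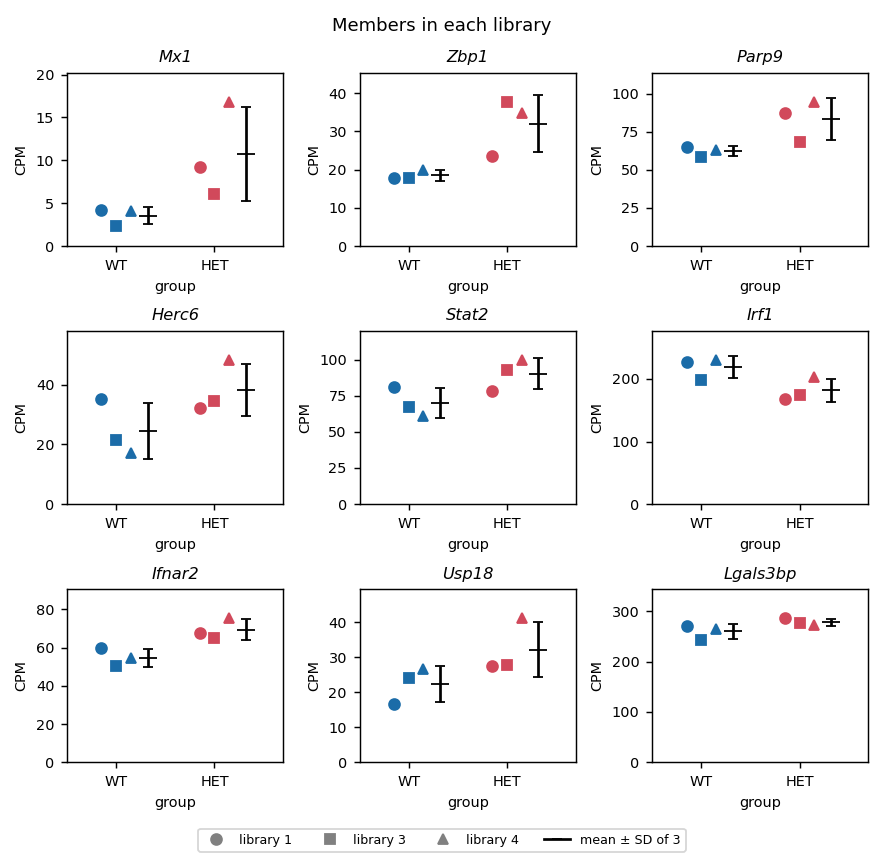
CPM (y axis, from 0) of 9 members in the WT and HET libraries (x axis), with marker shapes for library numbers 1, 3 and 4 and bars for the mean ± SD of 3. The 9 were picked from the 52 for an unadjusted edgeR p under 0.05 or for groups that did not overlap, so they do not represent the other members. The HET points lie above all WT points for Mx1, Zbp1, Parp9, Ifnar2, Usp18 and Lgals3bp, and overlap them for Herc6, Stat2 and Irf1.

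Genes for modification by ISG15, ubiquitin or ADP-ribose had 6 of 8 positive fold changes and a median of 0.21. Parp9, which encodes an ADP-ribosyltransferase family member that works with the ubiquitin ligase DTX3L, measured 64.8, 58.5 and 63.0 CPM in WT and 87.2, 68.0 and 94.5 CPM in HET, with no overlap (0.43 ± 0.17 SE, edgeR adjusted p = 0.788). Dtx3l, its neighbour, had 0.05 ± 0.12 SE. Herc6, the mouse ligase that attaches ISG15, measured 35.2, 21.6 and 17.2 CPM in WT and 32.2, 34.5 and 48.3 CPM in HET. WT 1 lay within the HET range (0.63 ± 0.27 SE, edgeR adjusted p = 0.844).

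Isg15, the ubiquitin-like modifier itself, had the lowest fold change of all members over the 6 libraries, in the opposite direction to Herc6. It measured 9.20, 4.21 and 5.49 CPM in WT and 7.04, 1.53 and 4.09 CPM in HET, from 7 counts in HET 3 to 71 in HET 1. The groups overlapped and the error was wide (-0.54 ± 0.59 SE, edgeR adjusted p = 0.995). Its fold change was -1.15 without HET 1 and -0.16 without WT 1 or HET 3, where Ifitm1, at -0.38 and -0.34, lay lower. Without HET 4 it was -0.49, where Mx2, at -0.62, and Ifi44, at -0.53, lay lower. Parp14 (0.24), Parp12 (0.22) and Trim30a (0.21) had fold changes above 0, and Trim25, the ligase that acts on the RNA sensor RIG-I, had -0.16 ± 0.13 SE.

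The immunity-related GTPases, which act on the vacuoles of intracellular parasites, all had positive fold changes between 0.22 and 0.39 (Igtp 0.39, Irgm1 0.33, Ifi47 0.32, Iigp1 0.31 and Irgm2 0.22). Their median was 0.32 and the smallest edgeR adjusted p among them was 0.952. In HET 4 the group's median log2 level was 0.67 above the WT mean, against -0.03 in HET 1 and -0.11 in HET 3. HET 4 was the highest library for Igtp, Irgm1, Iigp1 and Irgm2, whereas Ifi47 was highest in HET 1, at 83.7 CPM against 70.7 CPM in HET 4. Irgm2 measured 99.0 CPM in HET 4 and 41.4 to 61.0 CPM in the other 5 libraries. Without HET 4 the median was 0.14 and 3 of 5 values were positive, with 0.24 for Igtp, -0.12 for Iigp1 and -0.21 for Irgm2. Ifi47 had its lowest value, 0.14, without HET 1. The remaining interferon-induced members had a median of 0.06, from 0.36 for Xaf1, a partner of the apoptosis inhibitor XIAP, to -0.30 for Ifi44. Ifi44 measured 51.8, 28.0 and 25.3 CPM in WT and 21.5, 27.0 and 37.8 CPM in HET, so the lower HET mean came from WT 1. Without WT 1 its fold change was 0.10. Sp100, a component of nuclear bodies, had 0.09, Shisa5 0.10, Ifi27 0.04 and Tor3a -0.06.

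**Figure D3:**
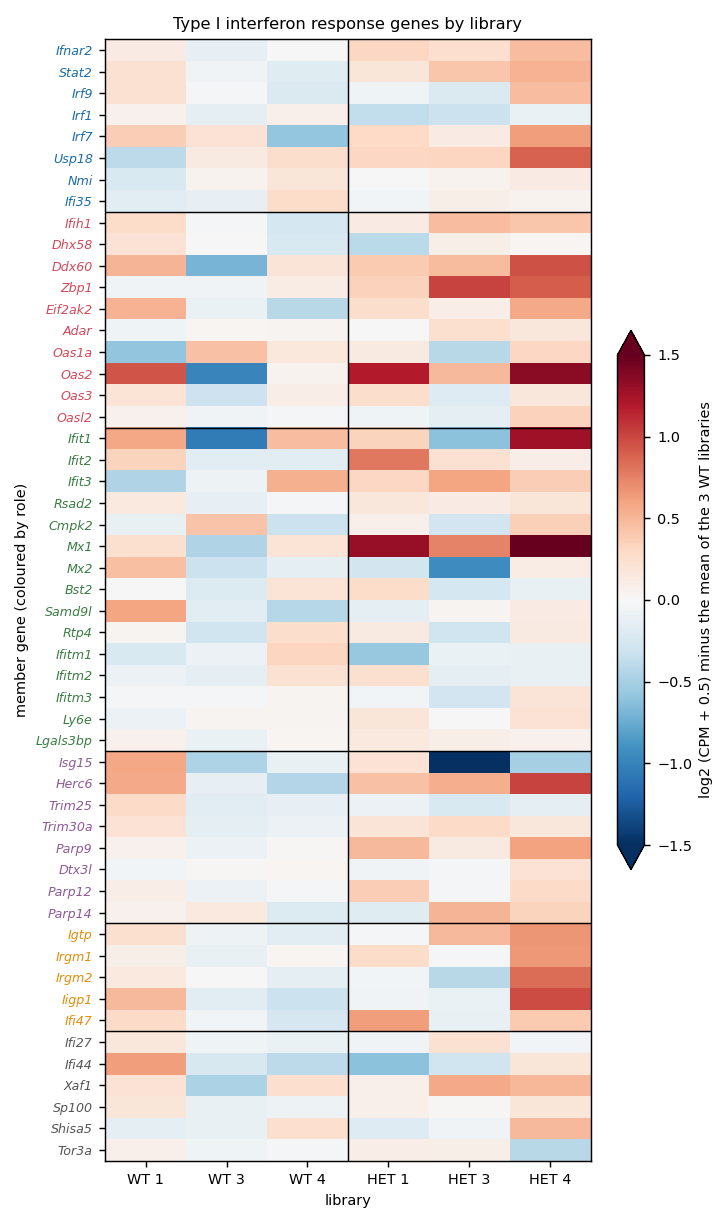
Log2 (CPM + 0.5) of each member (rows, coloured by role) in each library (columns) relative to the mean of the 3 WT libraries, with colours saturated beyond 1.5 in either direction. The HET 4 column, with a median of 0.30, and within WT the WT 1 column, with 0.14, are red in most rows, and Mx1 is red in all 3 HET libraries.

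Libraries of the same group differed in the members as a whole. HET 4 had the highest value of the 6 libraries in 22 members (42.3%), against 15.9% of all genes, and the lowest in 1 member, Tor3a. The median member lay 0.30 above the WT mean in HET 4 on the log2 scale, against 0.14 in HET 1 and 0.04 in HET 3. Among the WT libraries, WT 1 was the highest in 33 of 52 members (63.5%, against 33.4% of all genes), with a median of 0.14. WT 3 was the highest WT library in 3 members, with a median of -0.10. WT 1 and HET 1 thus had equal medians, and HET 3 lay below WT 1. Members together summed to 3767 to 4221 CPM in WT libraries and 4020 to 4762 CPM in HET libraries. Without HET 4 the median log2 fold change of the members was 0.09 with 33 of 52 positive, and without WT 1 it was 0.20 with 39 positive. HET 4 also had the highest B lineage marker sum, through Cd74, the invariant chain of MHC class II, at 128 CPM against 63.3 to 86.1 CPM in the other libraries. The B cell receptor gene Cd79b lay within the range of the others at 19.1 CPM. Among neutrophil markers, whose sum in HET 4 was 230 CPM and lay within the range of the others, Mpo was lowest in HET 4 at 6.63 CPM, while S100a9, at 50.9 CPM, was above its levels in WT 1, WT 4 and HET 3. The part of these cells in the HET 4 values was not tested.

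**Figure D4:**
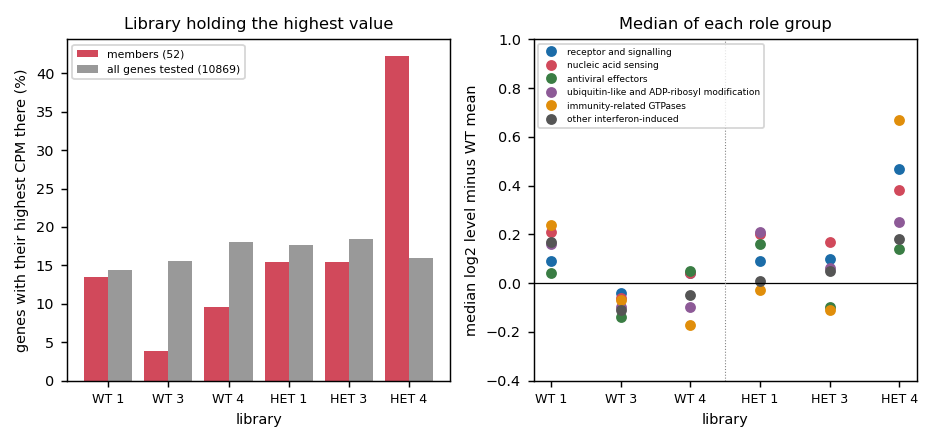
Left, share of the 52 members and of all 10869 tested genes (y axis, percent) whose highest CPM was in each library (x axis), 42.3% against 15.9% in HET 4. Right, median log2 level of each role group relative to the WT mean (y axis) by library (x axis), which reached 0.67 for the immunity-related GTPases in HET 4.

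The spread of the members between libraries of the same group had a median SD of 0.27 on the log2 scale, against 0.25 for all genes tested. The median level was higher for the members, at 60.2 CPM against 42.0 CPM, and genes of equal level were not compared. Among the members the spread was widest for Ifit1 at 0.92, Isg15 at 0.77 and Oas2 at 0.76, and narrowest for Lgals3bp at 0.07. Exons of 11 members overlap those of another protein-coding gene in GENCODE M21, among them the pairs Parp9 and Dtx3l, and Igtp and Irgm2. How the reads of such pairs, and of paralogs such as the Ifit, Ifitm, Oas and Mx genes, were assigned is not known from the sources at hand, so their single values are uncertain.

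Other genes of the pathway were taken from 3 lists. Of 22 tested genes for interferon induction and receptor signalling, 0 passed in edgeR and the median was 0.06. An unadjusted p under 0.05 was reached by 1 of them (4.55%, against 5.22% of all genes). That gene was Irf3, the transcription factor that switches on interferon production after RNA sensing. It measured 61.3, 71.9 and 74.2 CPM in WT and 95.7, 106 and 110 CPM in HET, with a clear gap between the groups (0.58 ± 0.15 SE, edgeR adjusted p = 0.172). Its exons overlap those of Bcl2l12. Mb21d1, the DNA sensor cGAS, had 0.61 ± 0.30 SE and Irf5 had 0.50 ± 0.24 SE, both with overlapping groups.

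Of 17 tested genes that restrain interferon signalling, 0 passed and the median was -0.03. An unadjusted edgeR p under 0.05 was reached by 2 (11.8%, against 5.22% of all genes). Both were lower in HET, as were 3.19% of all genes at that threshold. Tnfaip3, the ubiquitin-editing protein A20, measured 108, 76.3 and 69.9 CPM in WT and 43.8, 53.4 and 51.6 CPM in HET (-0.78 ± 0.19 SE, edgeR adjusted p = 0.115). Socs3, a feedback inhibitor of cytokine receptors, measured 87.7, 51.6 and 64.4 CPM in WT and 46.6, 36.4 and 30.4 CPM in HET (-0.84 ± 0.22 SE, edgeR adjusted p = 0.180). In both genes the HET libraries all lay under the WT libraries, as in 5.64% of all genes. Ptpn1, a phosphatase that acts on receptor-bound kinases, had 0.22 ± 0.13 SE.

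The list of 62 other tested interferon-induced genes held 45 with positive fold changes (72.6%, against 50.7% of all genes) and a median of 0.14, the same as the members. HET 4 had the highest value in 25 of them (40.3%, against 15.9% of all genes). An unadjusted edgeR p under 0.05 was reached by 8.06% of the list, against 5.22% of all genes. The groups did not overlap in 8 (12.9%, against 10.3%), with HET above in 5 and below in 3. Over all genes, 0.258% passed. Only 1 gene of the list passed, Gbp2b, a guanylate-binding protein gene that fell in HET, with 131, 95 and 117 counts in WT and 9, 0 and 0 counts in HET (edgeR adjusted p = 0.000168). Its neighbour Gbp2 measured 81.9, 75.9 and 77.3 CPM in WT and 96.4, 104 and 122 CPM in HET (0.45 ± 0.15 SE, edgeR adjusted p = 0.495). Isg20, an RNA exonuclease gene, measured 35.5, 29.8 and 37.9 CPM in WT and 29.0, 18.8 and 21.4 CPM in HET (-0.57 ± 0.24 SE, edgeR adjusted p = 0.844). Ly6a, the interferon-inducible gene of the sort marker Sca-1, measured 21.8 to 34.6 CPM in WT and 25.5 to 40.1 CPM in HET, with overlapping groups, and was chosen after its values were seen. The 21 listed interferon ligand genes were not analysed here.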

How the data were processed

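RNA-seq of LT-HSCs was available as whole-number counts per gene and library, deposited by the authors. FastQC, STAR 2.5.2b, edgeR, limma and mm10 are named, with no role or order, in the submitters' processing notes. Which counter, annotation, strand setting and kit were used is not given in the sources. The protocol fields attached to the samples describe human biopsies and were not used. The table's second-highest value was at least 1.01 CPM for every gene, so it was filtered before deposit.

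Counts were fitted with edgeR 4.0.16 in R 4.3.3 (filterByExpr, which removed 910 genes, TMM scaling, robust quasi-likelihood F test, two-sided, group as the only term). P-values were Benjamini-Hochberg adjusted over all 10869 genes, with a threshold of 0.05. The biological coefficient of variation was 20.7%. Standard errors came from the F statistic. A count of 3 corresponded to 0.298 CPM in the deepest and 0.715 CPM in the shallowest library. Whether reads were collapsed by molecular identifiers is not known from the sources at hand. Levels relative to the WT mean used log2 (CPM + 0.5). Positions and exonic lengths came from GENCODE M21 on GRCm38, and promoters from RefSeq. Scripts were tested on simulated counts.

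The members and lists were chosen with earlier results of these data known. Every member was placed in a role. Values in each library are given for Mx1 and the receptor and transcription factor genes, the 8 members of smallest p, the 3 highest and 3 lowest fold changes, and the 5 highest levels per kb. One further pathway gene is not reported here. From each pathway list, genes past the threshold and up to 3 of smallest p are named. The remaining members are given by fold change, and Usp18 and Ly6a were chosen for values in each library after these were seen. Alternatives were RLE and upper quartile scaling, no filter, at least 10 CPM in 3 libraries, DESeq2 1.42.0, limma-voom (limma 3.58.1), the library number as a block, and leaving out each library.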

Additional observations from a re-analysis of the deposited data

How the results depend on the processing

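In every alternative run, 0 members passed (the smallest adjusted p of a member was 0.130, for Zbp1 without HET 1), and the members' median log2 fold change stayed above 0, at 0.09 to 0.20 when 1 library was left out and 0.12 to 0.15 otherwise. The setting of at least 10 CPM in 3 libraries tested only 48 members, and Mx1 and Isg15 were not among them. Genes called over the whole table numbered 28, against 59 with DESeq2 and 10 to 68 when 1 library was left out (lowest without HET 4, 11 without WT 1, highest without HET 1). Members whose groups did not overlap numbered 6, against 7 to 21 when 1 library was left out, settings in which 17.6% to 24.1% of all genes did not overlap. Promoters with the longer form of the response element core made up 22.0% of the members, against 46.3%. Whether the library numbers shared by the groups mark pairs is not known. Same-numbered libraries had correlations of 0.11, -0.04 and 0.07 between their deviations from the group means. Differently numbered libraries had -0.17 to 0.11, so these correlations cannot settle it. The fit with library number as a block called 49 genes and 0 members. In that fit 9 members had an unadjusted edgeR p under 0.05, against 6, and the smallest adjusted p of a member was 0.152, for Oas2. When 1 library was left out, 21 of the 52 members changed sign in at least 1 fit without passing, 10 of them without HET 4, and 4 of the 21 had a fold change above 0.2 in size over all libraries: Ifit1 (-0.21 without HET 4), Irgm2 (-0.21 without HET 4), Iigp1 (-0.12 without HET 4) and Ifi44. Among members with values in each library, the sign changed for Ifitm2 (-0.00 with the block) and, when 1 library was left out, for Ifitm2 (-0.14 to 0.13), Ifi44 (-0.53 to 0.10, highest without WT 1), Irf9 (-0.14 to 0.21, lowest without HET 4) and Ifitm3 (-0.16 to 0.08, highest without HET 3). The cause of these changes was not tested. Ifit3 had the fewest counts of the members, and Mx1, Mx2, Ifit1 and Isg15 also had fewer than 100 in every library. Counting error thus widens the intervals of these genes, beside the spread between libraries.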
